A study of Mus musculus with 10 samples.

Results

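The metalloproteases of the MMP, ADAM and ADAMTS families, the related ADAMTS-like proteins and the TIMP inhibitors were taken from a table of 20156 gene rows measured in mouse hippocampus. These families, and their grouping by role, were chosen with earlier results of these data known. Members were then taken by symbol: every row named Mmp, Adam, Adamts, Adamtsl or Timp followed by a number and at most 1 letter. This gave 61 genes, made up of 4 Timp, 14 Mmp, 19 Adam, 19 Adamts and 5 Adamtsl symbols. Of these, 52 passed the filter on low counts and were tested. The other 9 (Adam3, Adam4, Adam5, Adam21, Adam28, Adam32, Adamts19, Mmp21 and Mmp25) had totals of 15 to 96 counts over all libraries, too few for a comparison.

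The libraries came from 5 mice labelled wild type (WT) and 5 mice of the genotype labelled Tfam AKO (TfamAKO), all 6 months old and otherwise untreated as far as the labels say. Tfam encodes the protein that packages mitochondrial DNA and is needed for its transcription, and the series title refers to mitochondria of astrocytes. The sources used here do not state which promoter or cell type drives the deletion, nor the sex or litter of the mice. The question is which genes of pericellular and matrix proteolysis differ between the genotypes.

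Metalloproteases of these families carry a zinc ion in the active site and are made as inactive proenzymes. MMPs cut matrix proteins and other secreted proteins, ADAMs release the outer part of membrane proteins, and ADAMTS enzymes cut proteoglycans and procollagens. TIMPs bind the active site and block it, and ADAMTS-like proteins share the ancillary domains of ADAMTS enzymes but have no protease domain. In brain, the lectican proteoglycans of perineuronal nets, adhesion molecules and growth factor precursors are among the known substrates.

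Total counts per library ran from 16584245 to 28675367. Tfam itself fell from a mean of 29.7 to 22.5 CPM (the usual depth-scaled count, here by effective library size; edgeR adjusted p = 0.0204). All 8 markers of hippocampal neurons were detected, and their summed level was 767 to 841 CPM in WT, 691 to 783 CPM in TfamAKO 1 to 4 and 441 CPM in TfamAKO 5. WT 3, 4 and 5 held choroid plexus transcripts: the 12 markers summed to 5829, 4336 and 2895 CPM there, 48.6 and 170 CPM in WT 1 and 2, and 43.4 to 138 CPM in TfamAKO. Kdm5d, a gene of the Y chromosome, reached 22.7 and 22.4 CPM in TfamAKO 4 and TfamAKO 5 but no more than 0.699 CPM in any other library. Xist, a transcript of the X chromosome, was at 201 to 467 CPM in WT and 0 to 286 CPM in TfamAKO, with 2 TfamAKO libraries below all WT libraries. Libraries with a high Kdm5d level were thus found in TfamAKO only, and the genotypes were not balanced in this respect. Where a call on a member changed without WT 3, 4 and 5 or without TfamAKO 4 and 5, or with a choroid plexus score as a covariate, the value is given beside it.

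Of the 52 tested members, 28 differed between the genotypes (53.8%, against 37.4% of all 16180 genes tested; edgeR quasi-likelihood test, Benjamini-Hochberg adjusted p threshold 0.05). In TfamAKO 18 members rose (34.6%, against 20.8% of all genes) and 10 fell (19.2%, against 16.6%). Changes of at least 2-fold were all but 1 upward: 13 members rose by that much (25%, against 6.07% of all genes) and Adamtsl2 alone fell by that much (against 1.98%). The groups did not overlap for 14 of the 52 members that were higher (against 14.5% of all genes). For lower members this held for 3 of the 52, a smaller share than the 9.43% of all genes. The median log2 fold change of TfamAKO over WT was 0.26 over the members and -0.02 over all genes. The members share the same 10 libraries and are not independent of each other.

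**Figure D1:**
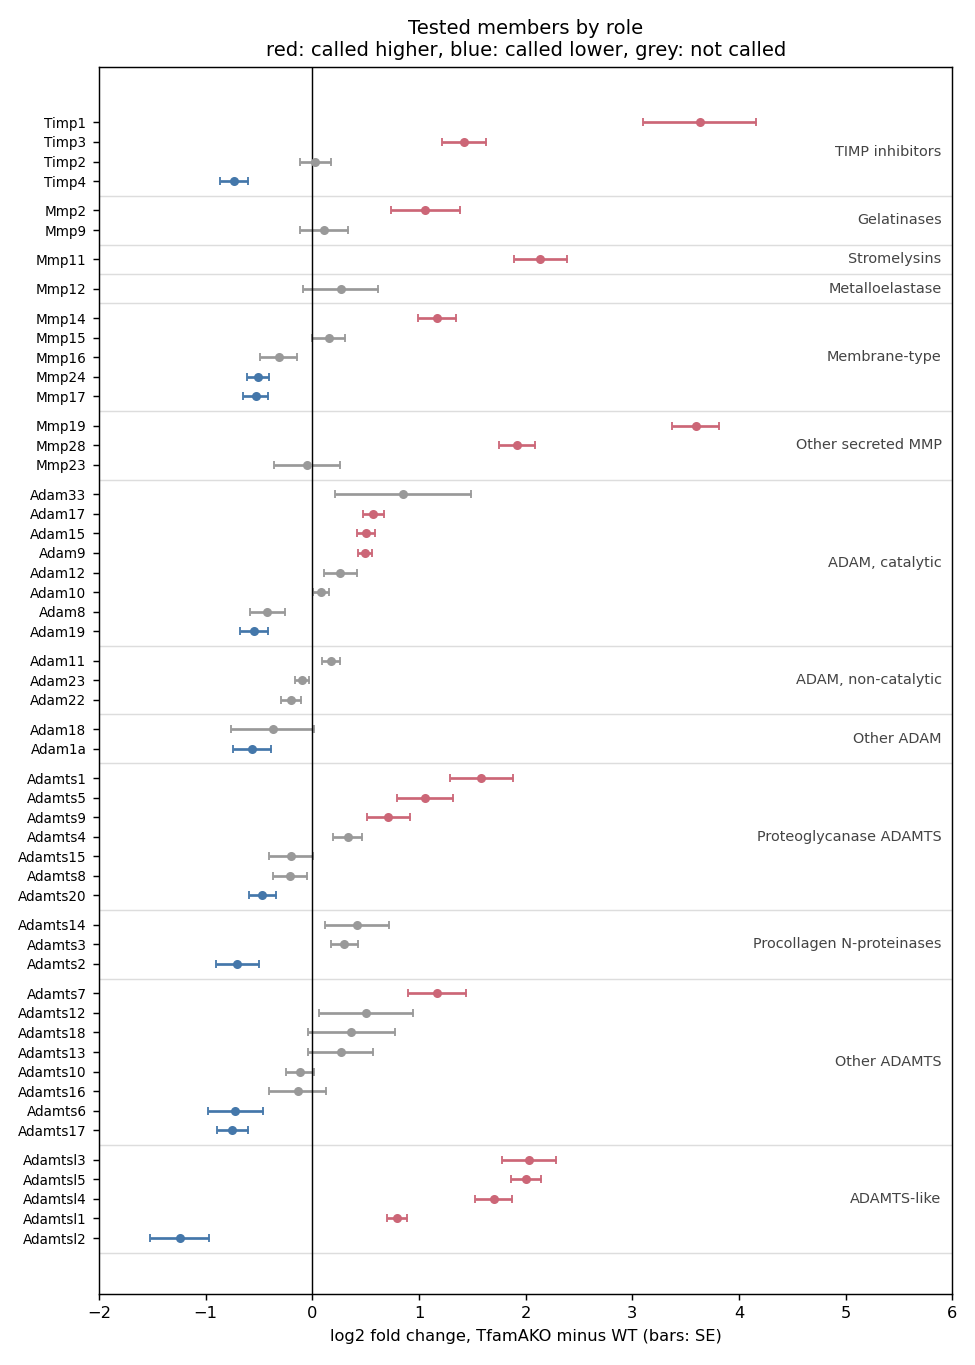
Log2 fold change of TfamAKO over WT (x axis, bars are the standard error, SE) for the 52 tested members, grouped by role. The 18 members called higher (red) reach 3.63 for Timp1, while the 10 called lower (blue) go no further than -1.25 for Adamtsl2. Grey members did not pass the threshold.

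The 4 TIMP genes gave 3 different outcomes: Timp1 and Timp3 rose, Timp4 fell, and Timp2 did not pass the test. The RefSeq promoter windows (250 bases before to 50 after the start of transcription, build GRCm38.p6) of the 3 genes that changed are shown because these genes moved in opposite directions. Capitals mark TGAGTAA, a letter string close to the binding site of the AP-1 transcription factor, which was searched after the sequences had been seen.
Timp1, chrX:20869916-20870215, plus strand: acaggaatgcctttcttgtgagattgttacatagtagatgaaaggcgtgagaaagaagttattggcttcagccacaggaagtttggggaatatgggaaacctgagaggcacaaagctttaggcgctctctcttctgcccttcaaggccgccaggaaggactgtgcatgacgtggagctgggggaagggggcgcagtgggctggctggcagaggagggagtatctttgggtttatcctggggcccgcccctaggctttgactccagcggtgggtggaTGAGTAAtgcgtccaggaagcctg
Timp3, chr10:86300162-86300461, plus strand: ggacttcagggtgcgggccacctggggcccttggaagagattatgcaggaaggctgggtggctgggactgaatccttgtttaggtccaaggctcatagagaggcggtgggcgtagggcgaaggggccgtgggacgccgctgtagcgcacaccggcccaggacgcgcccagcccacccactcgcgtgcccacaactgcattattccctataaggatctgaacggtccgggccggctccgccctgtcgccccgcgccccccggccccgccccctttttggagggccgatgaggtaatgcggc
Timp4, chr6:115252156-115252455, minus strand: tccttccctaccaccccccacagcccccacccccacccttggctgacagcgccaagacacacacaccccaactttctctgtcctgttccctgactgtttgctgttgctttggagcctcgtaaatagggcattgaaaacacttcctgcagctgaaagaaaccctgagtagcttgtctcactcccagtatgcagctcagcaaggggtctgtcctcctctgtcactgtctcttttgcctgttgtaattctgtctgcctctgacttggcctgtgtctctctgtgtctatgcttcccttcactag
The TGAGTAA of the Timp1 window begins 27 bases after the start. On either strand this string occurs in 1 of 40 member promoters and in 2.68% of all 32851 RefSeq promoter windows. The Timp3 window holds 24 CpG dinucleotides at 67% GC, the Timp1 window 8 at 55% and the Timp4 window 2 at 53.3%. The median is 7 CpG and 52.7% GC over all promoters, and 19 CpG and 64.2% GC over the 40 windows found for 36 members.

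Timp1, a secreted inhibitor of most MMPs that is known as a marker of reactive astrocytes, was near absent in WT. It had 1, 0, 2, 2 and 9 counts in WT 1 to 5 and 28, 43, 44, 42 and 27 counts in TfamAKO 1 to 5. On the CPM scale this was 0.0615, 0, 0.104, 0.0788 and 0.345 in WT (the 0 of WT 2 allows up to 0.126 CPM, from counting error only) and 1.40, 2.05, 2.20, 1.48 and 0.951 in TfamAKO. All 5 TfamAKO libraries lay above all WT libraries, and WT 5 held most of the WT counts. The log2 fold change was 3.63 ± 0.53 (SE, edgeR adjusted p = 0.000307). It was 4.62 without WT 5 and 5.72 without WT 3, 4 and 5, so that its size depends on a few WT counts. Even in TfamAKO the transcript was scarce.

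Timp3, which is held in the matrix and also blocks ADAM17 and several ADAMTS enzymes, was at 75.6, 117, 150, 139 and 132 CPM across WT 1 to 5, against 201, 417, 360, 364 and 303 CPM in TfamAKO 1 to 5. TfamAKO 1 was the lowest of its group but still above every WT library. The rise was 2.68-fold (log2 fold change 1.42 ± 0.20, edgeR adjusted p = 0.000270). Timp4, a TIMP expressed mainly in brain and heart, was at 44.8, 56.2, 47.6, 41.4 and 40.8 CPM in WT mice, against 33.96, 29.7, 25.6, 29.7 and 19.98 CPM in TfamAKO. Every TfamAKO library was below every WT library (log2 fold change -0.73 ± 0.13, edgeR adjusted p = 0.00137). Timp2, which takes part in the activation of pro-MMP2 at the cell surface, was at 321 ± 54.2 CPM in WT and 327 ± 65.2 CPM in TfamAKO (SD, n = 5 each), and the ranges overlapped (edgeR adjusted p = 0.895). Timp1, Timp3 and Timp4 kept their calls under every alternative in which they were tested.

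**Figure D2:**
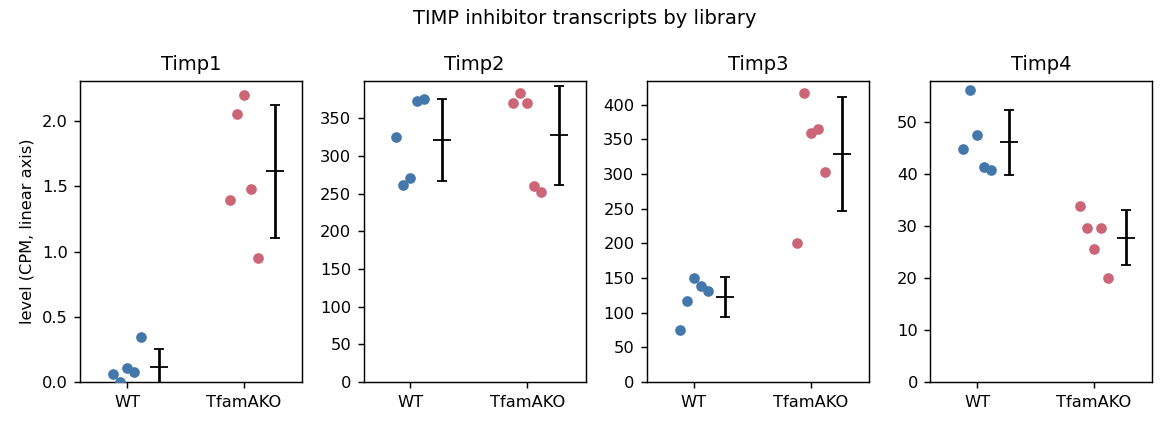
CPM (y axis, linear, starting at 0) of the 4 TIMP genes in each WT and TfamAKO library; horizontal marks and bars are mean and SD over 5 mice, with the Timp1 bar in WT ending at the axis. Timp1 and Timp3 lie higher and Timp4 lower in all TfamAKO libraries, while the Timp2 groups overlap.

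Timp1, Timp3 and Timp4 each lie inside a synapsin gene on the opposite strand (Syn1, Syn3 and Syn2, GENCODE M21). The kit marks strand, but the sources used here do not state whether the counting used it. The synapsin genes had log2 fold changes of -0.30 ± 0.09 for Syn1 (edgeR adjusted p = 0.0217), 0.32 ± 0.16 for Syn3 (0.149) and -0.23 ± 0.11 for Syn2 (0.106).

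Levels of different genes were compared per length, as counts divided by the length of the longest coding transcript and scaled to the same total in each library. On this scale Timp2 was the most abundant member in WT (230 ± 43.98, SD, n = 5), followed by Adam11 (140), Mmp17 (116), Adam15 (108) and Timp3 (68.8). In TfamAKO Timp3 (193 ± 44.2) came next after Timp2 (245 ± 48.1), a distance close to the SD of either gene. The composition of the TIMP transcripts moved with it. Timp3 made up 14.3%, 23.5%, 28.0%, 21.4% and 20.4% of the TIMP signal per length in WT 1 to 5 and 28.4%, 44.3%, 41.6%, 49.97% and 46.9% in TfamAKO 1 to 5. The mean share of Timp3 was 21.5% ± 4.98 in WT and 42.2% ± 8.34 in TfamAKO, that of Timp2 71.3% ± 5.69 and 53.6% ± 7.93, and that of Timp4 7.10% ± 1.77 and 3.10% ± 0.679 (SD, n = 5 each). Timp1 made up 0.103% ± 0.109 in WT and 1.09% ± 0.207 in TfamAKO. WT 3 and TfamAKO 1 were nearly equal in their Timp3 share.

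**Figure D3:**
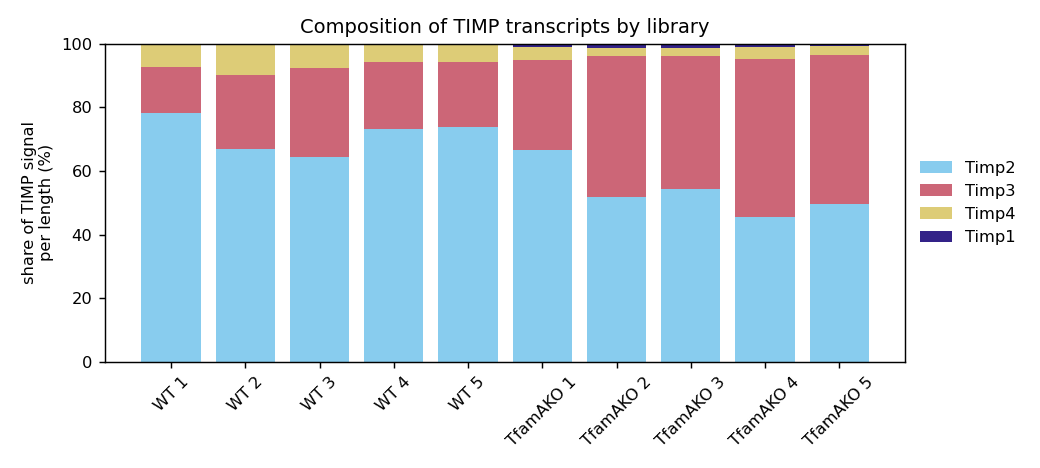
Share of the 4 TIMP genes in their summed signal per length (y axis, percent) in each library. Timp3 takes 14.3% to 28.0% of the bar in WT and 28.4% to 49.97% in TfamAKO, and Timp2 the greater part of the rest.

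Among MMP genes, 5 of 12 tested members rose (41.7%, against 20.8% of all genes), each by at least 2-fold, and 2 fell (16.7%, against 16.6%). The collagenases Mmp1a, Mmp8 and Mmp13 and the stromelysins Mmp3 and Mmp10 were not analysed here. Mmp19, a secreted MMP that cuts basement membrane proteins, showed the largest rise. It was at 0.676, 1.258, 0.780, 1.22 and 0.768 CPM across WT 1 to 5, against 8.19, 12.9, 12.4, 14.4 and 9.90 CPM in TfamAKO 1 to 5. The lowest TfamAKO library was far above the highest WT library (12.1-fold, log2 fold change 3.59 ± 0.22, edgeR adjusted p = 6.73e-07). In TfamAKO the level of Mmp19 per length (9.41) lay close to those of Mmp11 (10.8) and Mmp28 (12.1).

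Mmp11 (stromelysin 3), which furin activates inside the cell, was at 2.40, 1.93, 1.20, 2.52 and 2.03 CPM in WT mice, against 5.09, 9.84, 11.2, 11.0 and 7.36 CPM in TfamAKO. Mmp28 (epilysin), also a furin-activated secreted enzyme, was at 2.52, 4.45, 3.90, 4.38 and 4.41 CPM in WT mice, against 14.7, 18.3, 16.1, 14.5 and 11.3 CPM in TfamAKO. Neither gene had overlapping groups. Mmp11 rose 4.40-fold (edgeR adjusted p = 6.85e-05) and Mmp28 3.78-fold (9.27e-06).

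The gelatinases differed from each other. Mmp2 (gelatinase A) was at 2.27, 1.93, 4.57, 5.56 and 3.03 CPM in WT mice, against 4.24, 8.93, 7.54, 10.6 and 4.93 CPM in TfamAKO, with WT 3 and WT 4 inside the TfamAKO range. It rose 2.08-fold (log2 fold change 1.06 ± 0.33, edgeR adjusted p = 0.0233), a call that was lost without WT 1 (0.0514), WT 5 (0.0563), TfamAKO 2 (0.0568), TfamAKO 4 (0.0648) or TfamAKO 4 and 5 (0.0585). Mmp9 (gelatinase B), which is known from activity-dependent synaptic remodelling and from neutrophils, was at 1.57 ± 0.317 CPM in WT and 1.70 ± 0.417 CPM in TfamAKO (SD, n = 5 each; edgeR adjusted p = 0.730). The neutrophil and monocyte markers summed to at most 2.43 CPM in any library. The macrophage elastase Mmp12 was scarce: it read 0.738, 0.294, 0.468, 0.434 and 0.307 CPM in WT mice and 0.549, 0.621, 0.799, 0.317 and 0.388 CPM in TfamAKO mice, or 0.448 ± 0.179 and 0.535 ± 0.192 CPM (edgeR adjusted p = 0.581).

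Membrane-type MMPs moved both ways. Mmp14 (MT1-MMP), the main activator of pro-MMP2, was at 15.1, 20.3, 18.2, 19.1 and 21.1 CPM in WT mice, against 23.4, 49.1, 47.0, 46.7 and 44.7 CPM in TfamAKO. TfamAKO 1 lay just above the WT range and the other TfamAKO libraries at about the same high level (log2 fold change 1.17 ± 0.18, edgeR adjusted p = 0.000380). Mmp17 (MT4-MMP), a glycosylphosphatidylinositol-anchored enzyme and the most abundant MMP, was at 292, 241, 279, 298 and 296 CPM in WT mice, against 261, 174, 185, 188 and 164 CPM in TfamAKO. Its groups overlapped because TfamAKO 1 stood above WT 2 (log2 fold change -0.53 ± 0.12, edgeR adjusted p = 0.00371). Mmp24 (MT5-MMP), known from neurons and as a cadherin-cleaving enzyme, was at 49.0, 49.0, 56.4, 55.8 and 55.8 CPM in WT mice, against 45.1, 32.0, 37.0, 31.3 and 41.2 CPM in TfamAKO, without overlap (log2 fold change -0.51 ± 0.10, edgeR adjusted p = 0.00235). Both falls lost their call without WT 3, 4 and 5, which leaves 2 WT libraries (Mmp17 -0.43, adjusted p = 0.107; Mmp24 -0.37, 0.133). Mmp15 and Mmp16 did not pass, and Mmp16 fell without TfamAKO 1 (log2 fold change -0.52, adjusted p = 0.00310).

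**Figure D4:**
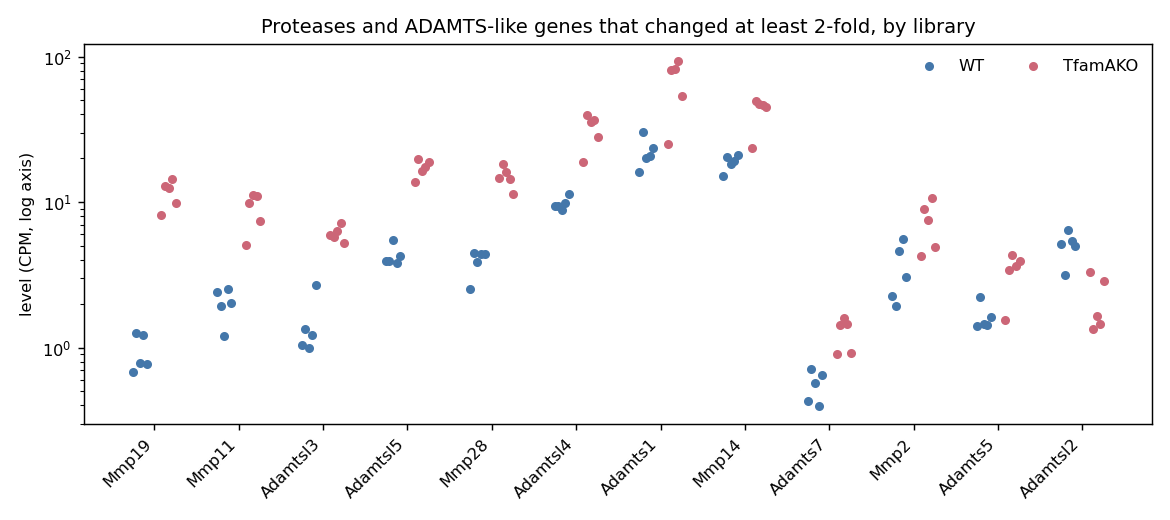
CPM (y axis, log scale) in each WT (blue) and TfamAKO (red) library of the 12 members other than Timp1 and Timp3 that passed the threshold with at least a 2-fold change. Mmp19 shows the widest gap, TfamAKO 1 is the lowest red point for Mmp14 and Adamts1, and Adamtsl2 is the gene that fell.

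Of 8 tested ADAM genes with a catalytic site known outside the testis, 3 rose (37.5%, against 20.8% of all genes), 1 fell (12.5%, against 16.6%) and none of these 4 changed 2-fold. Adam9 was at 50.7 to 60.2 CPM in WT and 71.3 to 84.4 CPM in TfamAKO, Adam15 at 130, 119, 123, 114 and 123 CPM and then 147, 199.7, 189, 169 and 157 CPM, and Adam17 at 13.0 to 17.1 CPM and 19.7 to 24.4 CPM. In all 3 genes every TfamAKO library was above every WT library. Adam17 encodes the enzyme that releases TNF and ligands of the EGF receptor (log2 fold change 0.57 ± 0.10, edgeR adjusted p = 0.000801). Adam9 (0.50 ± 0.07, adjusted p = 0.000149) and Adam15 (0.50 ± 0.08, 0.000690) rose by a like amount, though Adam15 was not called in the values normalized by the authors (0.28, limma adjusted p = 0.0677). Adam19, which can cleave neuregulins, was at 15.5, 15.5, 12.9, 15.8 and 14.2 CPM in WT and 13.8, 9.65, 8.99, 8.45 and 9.83 CPM in TfamAKO mice (log2 fold change -0.55 ± 0.13, edgeR adjusted p = 0.00741), and lost its call without WT 3, 4 and 5 (adjusted p = 0.0680). Adam10, the constitutive sheddase of APP and Notch, was at 81.7 ± 8.83 CPM in WT and 86.5 ± 4.76 CPM in TfamAKO (SD, n = 5 each; edgeR adjusted p = 0.419). With the choroid plexus score it was called higher (0.24, adjusted p = 0.0490).

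Of 8 tested genes of proteins that carry ADAM17 and ADAM10 to the cell surface, 6 rose (75%, against 20.8% of all genes). The other 2 fell (25%, against 16.6%). Partner lists were chosen with earlier results of these data known, so that their shares only describe them. The iRhom genes Rhbdf1 (log2 fold change 1.62 ± 0.11, edgeR adjusted p = 1.54e-06) and Rhbdf2 (1.17 ± 0.26, 0.00430) and Frmd8 (0.87 ± 0.11, 0.000128), whose products serve ADAM17, rose together with Adam17. Among TspanC8 tetraspanins, which escort ADAM10, Tspan15 (0.92 ± 0.11), Tspan14 (0.42 ± 0.08) and Tspan17 (0.32 ± 0.07) rose. Tspan5 (-0.19 ± 0.06) and Tspan33 (-0.60 ± 0.20) fell. Tspan33 was at 29.2 and 17.4 CPM in WT 1 and 2 and 39.8, 39.0 and 36.7 CPM in WT 3, 4 and 5. In TfamAKO it was at 17.9 to 26.4 CPM, and WT 2 lay below all TfamAKO libraries. Of 17 tested genes of shed substrates, 7 rose (41.2%, against 20.8% of all genes) and 3 fell (17.6%, against 16.6%). Btc, Egf and App did not pass (edgeR adjusted p = 0.0577, 0.217 and 0.208). Hbegf, the gene of an EGF receptor ligand released by shedding, rose (2.82 ± 0.15, edgeR adjusted p = 2.35e-07). It was at 8.26 to 12.5 CPM in WT and 54.4 to 91.2 CPM in TfamAKO. Cx3cl1, the gene of a chemokine that neurons carry on the membrane, was at 575 to 603 CPM in WT and 385 to 503 CPM in TfamAKO (-0.47 ± 0.07, adjusted p = 0.000557).

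The non-catalytic ADAM genes of neurons did not pass the test. Adam11 read 307, 246, 275, 254 and 267 CPM in WT mice and 258, 318, 340, 324 and 281 CPM in TfamAKO mice, with overlapping groups. Its mean was 270 ± 23.6 CPM in WT and 304 ± 33.7 CPM in TfamAKO, that of Adam22 145 ± 19.4 and 126 ± 12.5 CPM, and that of Adam23 119 ± 8.33 and 111 ± 7.05 CPM (SD, n = 5 each; edgeR adjusted p = 0.125, 0.116 and 0.249). Without TfamAKO 1, Adam11 was higher (adjusted p = 0.0315) and Adam22 lower (0.0440), and Adam22 was also lower with the choroid plexus score (-0.35, adjusted p = 0.0351). Their products are receptors of the secreted LGI proteins. Lgi1 (log2 fold change -0.38 ± 0.13, edgeR adjusted p = 0.0309) and Lgi2 (-0.84 ± 0.15, 0.000978) fell, while Lgi3 (0.342) and Lgi4 (0.704) did not pass.

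**Figure D5:**
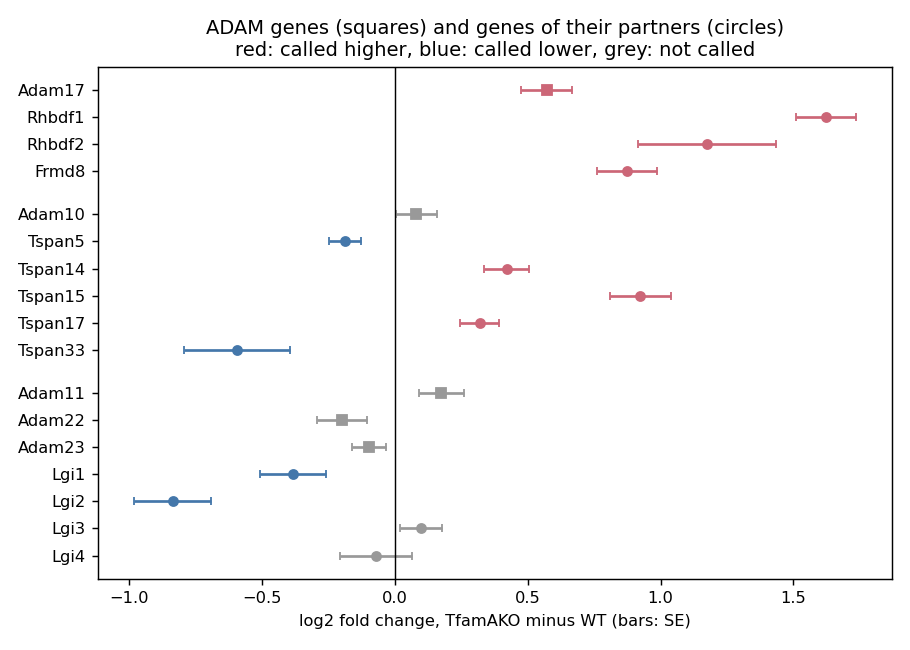
Log2 fold change of TfamAKO over WT (x axis, bars are SE) of ADAM genes (squares) and of genes whose products bind or carry them (circles). Adam17 and its 3 partners are all called higher (red), Adam10 is not called (grey) while its tetraspanins lie on both sides, and Lgi1 and Lgi2 are called lower (blue) beside 3 receptor genes that are not called.

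The remaining ADAM genes are known mostly from male germ cells. Adam1a, whose product acts in sperm, was at 20.8, 13.4, 11.9, 10.3 and 12.9 CPM in WT mice, against 10.3, 9.60, 7.99, 8.17 and 10.6 CPM in TfamAKO mice (log2 fold change -0.56 ± 0.18, edgeR adjusted p = 0.0248). WT 1 was the highest library, and TfamAKO 5 overlapped WT 4. It shares its locus with Mapkapk5 on the same strand, which leaves its level uncertain, and it was not called without TfamAKO 3 (0.0637), TfamAKO 4 (0.0613) or both TfamAKO 4 and 5 (0.0709). Adam18 was at 0.583 ± 0.198 and 0.444 ± 0.236 CPM (SD, n = 5 each; edgeR adjusted p = 0.471).

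Of 7 tested ADAMTS genes that cut lectican proteoglycans, 3 rose (42.9%, against 20.8% of all genes) and 1 fell (14.3%, against 16.6%). Adamts1 was at 16.2, 30.4, 19.96, 20.8 and 23.4 CPM in WT mice, against 25.1, 80.2, 81.6, 92.8 and 53.4 CPM in TfamAKO, where TfamAKO 1 lay within the WT range and the others above it (log2 fold change 1.58 ± 0.30, edgeR adjusted p = 0.00154). Adamts5 was at 1.41, 2.22, 1.46, 1.42 and 1.61 CPM in WT mice, against 1.55, 3.39, 4.35, 3.66 and 3.95 CPM in TfamAKO (1.05 ± 0.26, adjusted p = 0.00828). Adamts9 went from 7.29 ± 1.46 to 11.9 ± 3.11 CPM (SD, n = 5 each; edgeR adjusted p = 0.0163). In all 3 genes TfamAKO 1 stayed inside the WT range. All 3 lost their call without WT 3, 4 and 5, though their log2 fold changes stayed at 1.52, 0.90 and 0.84 (adjusted p = 0.0594, 0.160 and 0.101). Adamts5 and Adamts9 also lost it without TfamAKO 4 and 5 (0.0504 and 0.0504) and with the choroid plexus score (0.106 and 0.0743). Adamts9 was not called in the values normalized by the authors either (0.59, limma adjusted p = 0.0730).

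Adamts4, an aggrecanase known from oligodendrocytes, was the most abundant proteoglycanase in WT per length (15.5) and did not pass: it was at 20.8, 34.8, 20.4, 28.0 and 24.8 CPM in WT mice, against 29.2, 34.5, 31.2, 31.8 and 35.3 CPM in TfamAKO (edgeR adjusted p = 0.0719). WT 2 was the highest WT library, and without it Adamts4 was called higher (0.00757). Summed oligodendrocyte markers were also highest in WT 2 (8221 CPM, against 4686 to 5645 CPM in the other WT and 5080 to 7006 CPM in TfamAKO), and their part in the Adamts4 level was not tested. Adamts20 fell (log2 fold change -0.47 ± 0.13, edgeR adjusted p = 0.0131), and Adamts8 and Adamts15 did not pass. Of the 4 lectican genes, the substrates of these enzymes, Acan (0.98 ± 0.20) and Vcan (0.58 ± 0.12) rose, Ncan fell (-0.48 ± 0.14) and Bcan did not pass (edgeR adjusted p = 0.724).

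The procollagen N-proteinase Adamts2 fell from 13.3 ± 2.50 to 8.19 ± 2.48 CPM (SD, n = 5 each; edgeR adjusted p = 0.0177), and was not called without WT 3, 4 and 5 (0.233) or with the choroid plexus score (0.131). Adamts3, the most abundant of the group per length, read 10.1, 11.7, 10.03, 8.99 and 9.63 CPM in WT mice and 13.5, 11.6, 12.9, 14.5 and 9.37 CPM in TfamAKO mice. The groups overlapped through WT 2 and TfamAKO 5. Adamts3 (edgeR adjusted p = 0.0839) and Adamts14 (0.296; 0.0425 without TfamAKO 4 and 5) did not pass, although Adamts3 did without WT 2 (0.0423) or TfamAKO 5 (0.0148). Fibroblast and meningeal markers, cells known to make collagen, summed to 41.3 to 135 CPM in WT and 44.1 to 149 CPM in TfamAKO, and none of the 7 passed the test.

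Among the other ADAMTS genes, 1 of 8 tested rose and 2 fell, so that the share called was 37.5%, close to the 37.4% of all genes. Adamts7, known for cutting cartilage oligomeric matrix protein, was at 0.430, 0.713, 0.572, 0.394 and 0.652 CPM in WT mice, against 0.899, 1.43, 1.60, 1.44 and 0.916 CPM in TfamAKO. The groups were apart, but the level was low (log2 fold change 1.17 ± 0.27, edgeR adjusted p = 0.00551). This call was lost without WT 3, 4 and 5 (adjusted p = 0.0975), once the choroid plexus score entered the fit (0.0692) and in the authors' normalized values (0.57, limma adjusted p = 0.348). Adamts17 was at 6.00 to 8.18 CPM in WT and 3.73 to 5.69 CPM in TfamAKO (-0.75 ± 0.15, edgeR adjusted p = 0.00193), but was not called without WT 3, 4 and 5 (-0.64, adjusted p = 0.0747). In the authors' normalized values it differed by -0.04 (limma adjusted p = 0.914). Adamts6 fell with an edgeR adjusted p of 0.0431, which rose above the threshold without any 1 of WT 1, 2 or 3 or TfamAKO 2, 3, 4 or 5 (0.0509 to 0.105), and without both TfamAKO 4 and 5 (0.179). Adamts10, the most abundant of them per length in WT (15.6), was at 26.9, 26.6, 24.6, 18.7 and 22.6 CPM in WT and 18.3, 25.9, 21.7, 18.4 and 25.9 CPM in TfamAKO, with overlapping groups (edgeR adjusted p = 0.516).

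All 5 ADAMTS-like genes changed (against 37.4% of all genes), 4 upward. Their products have no protease domain, and several bind fibrillin microfibrils. Adamtsl5 was at 3.93, 3.94, 5.51, 3.78 and 4.26 CPM in WT mice, against 13.6, 19.7, 16.3, 17.5 and 18.9 CPM in TfamAKO. Adamtsl3 was at 1.05, 1.34, 0.988, 1.22 and 2.69 CPM in WT mice, against 5.89, 5.73, 6.29, 7.18 and 5.25 CPM in TfamAKO. Both were about 4 times as high in TfamAKO, with all 5 TfamAKO libraries above all WT libraries (4.01-fold and 4.09-fold, edgeR adjusted p = 1.48e-06 and 0.000108).

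Adamtsl4, known for its role in the fibres that hold the lens, was at 9.34, 9.39, 8.79, 9.89 and 11.3 CPM in WT mice, against 18.8, 39.5, 35.2, 36.8 and 28.1 CPM in TfamAKO mice (log2 fold change 1.70 ± 0.18, edgeR adjusted p = 2.90e-05). Adamtsl1 was at 9.79 to 10.9 CPM in WT and 15.1 to 20.4 CPM in TfamAKO (0.79 ± 0.10, adjusted p = 8.05e-05). Both were without overlap, and Adamtsl1, Adamtsl3, Adamtsl4 and Adamtsl5 were called higher under every alternative. Adamtsl2, known to bind latent TGF-beta binding protein, was the exception, at 5.16, 3.15, 6.45, 5.44 and 4.95 CPM in WT and 3.296, 1.34, 1.65, 1.44 and 2.85 CPM in TfamAKO (-1.25 ± 0.28, edgeR adjusted p = 0.00475). WT 2 overlapped TfamAKO 1, and the call was lost without WT 3, 4 and 5 (-0.93, adjusted p = 0.144), and again once the choroid plexus score entered the fit (-0.94, 0.0650). Summed per length, the 5 genes stood at 17.4 to 21.8 in WT and 44.6 to 62.3 in TfamAKO, whereas the summed MMP genes stood at 172 to 215 and 197 to 223.

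Of the wider list of partners, substrates and regulators, 68 genes were tested. Of these, 27 rose and 12 fell (against 20.8% and 16.6% of all genes). The list and its parts were chosen with earlier results of these data known, so that these shares only describe them. Partner genes called lower numbered 4 without WT 3, 4 and 5, and 5 with the choroid plexus score. In the plasminogen system, which activates several MMP proenzymes, Plat (tissue plasminogen activator, log2 fold change 1.54 ± 0.21), the receptor gene Plaur (2.11 ± 0.41) and Plau (0.54 ± 0.19) rose, as did the inhibitor gene Serpine2 (0.98 ± 0.12). Furin, which activates proenzymes inside the cell, did not pass (edgeR adjusted p = 0.791), nor did the membrane-anchored MMP inhibitor Reck (0.745) and the uptake receptor Lrp1 (0.586). A2m, the gene of a protease-trapping plasma protein, fell (-1.78 ± 0.52, edgeR adjusted p = 0.0188), but read 0.061 without the WT libraries with choroid plexus transcripts (adjusted p = 0.932) and 0.148 with the choroid plexus score as a covariate (0.786). Bsg, the gene of an inducer of MMP synthesis, fell (-0.56 ± 0.10). It was at 391 and 397 CPM in WT 1 and 2 and 533, 500 and 464 CPM in WT 3, 4 and 5. In TfamAKO Bsg was at 265 to 357 CPM. Of 12 transcription factors known to act on MMP and TIMP genes, 4 rose (33.3%, against 20.8% of all genes) and none fell: Fosl1 (5.41 ± 0.77), Runx1 (2.66 ± 0.22), Stat3 (1.67 ± 0.12) and Fos (1.49 ± 0.39). Other members of the list with small p were Cd44 (2.82 ± 0.22), an anchor of MMPs at the cell surface, and Pappa (2.32 ± 0.19), Ece1 (0.84 ± 0.09), Bmp1 (0.90 ± 0.11) and Nrcam (0.52 ± 0.07). The binding strings TGANTCA (AP-1) and TTCNNNGAA (STAT), searched on both strands, occur in 5% and 7.5% of the 40 member promoter windows and in 7.81% and 8.3% of all windows, and neither occurs in the 3 Timp windows printed above.

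Markers of several cell types moved with these genes. Astrocyte markers summed to 1128 to 1628 CPM in WT and 2637 to 4394 CPM in TfamAKO (4 of 6 rose). Gfap alone made up 344 to 530 CPM of this in WT and 1452 to 2749 CPM in TfamAKO, while Gja1 did not pass (edgeR adjusted p = 0.705). Microglial markers summed to 269 to 321 CPM in WT and 457 to 538 CPM in TfamAKO (5 of 6 rose). Endothelial markers summed to 138 to 185 and 197 to 334 CPM (4 of 5 rose), and markers of pericytes and smooth muscle to 128 to 181 and 186 to 261 CPM (3 of 6 rose). Neuronal markers summed to 3730 to 4027 CPM in WT and 2879 to 3471 CPM in TfamAKO (2 of 4 fell). Their part in the changes of the metalloprotease genes was not tested. In whole tissue, more or fewer cells of a type and more or less RNA per cell cannot be told apart.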

How the data were processed

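Hippocampus of 5 WT and 5 TfamAKO mice was sequenced, each mouse giving a single library. RNA was isolated with the PureLink RNA Mini Kit, per the labels' protocols, and libraries were built with a strand-marking mRNA kit. The authors deposited a table of unnormalized estimated counts, all whole numbers, and a table of normalized values, read here as a signal because the sources used here do not say how they made it. The submitters' processing notes name Salmon and DESeq2 1.26.0, and no genome build was stated in them.

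Estimated counts were fitted with edgeR 4.0.16 (R 4.3.3): filterByExpr with a minimum count of 10, TMM scaling, a two-sided quasi-likelihood F test of genotype without covariates, and Benjamini-Hochberg adjustment over all 16180 genes kept. SE was taken as the size of the log2 change over the root of its F statistic. CPM are given as mean ± SD over mice. Lengths came from GENCODE M21 for all 61 members and 84.5% of all rows. Promoters came from RefSeq (GRCm38.p6). A planned count of the zinc-binding protein motif was not run, because no protein sequences were used here.

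By rule every member could be named, with values in every library for the TIMP genes, for members called with at least a 2-fold change and an average of at least 0.5 CPM, and for the most abundant member per length of each role, and up to 12 partner genes by smallest p. The other partner genes, and other members shown library by library, were chosen after their values were seen. Members, roles, partner and marker lists were chosen with earlier results of these data known. Alternatives were 2 scalings, 2 filters, limma-voom (limma 3.58.1), DESeq2 1.42.0 with its Wald test, limma on log2 of the authors' normalized signal with pseudocounts of 0.5, 1 and 5, a replicate block, a choroid plexus covariate, and leaving out libraries. The steps were tested on simulated data. Reads are not independent molecules, so the limit for a count of 0 (3 counts) covers counting error only.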

Additional observations from a re-analysis of the deposited data

Results flagged for a closer look

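In each group of 5 libraries, the highest and the lowest library were compared with the rest by Dixon's ratio of the gap to the range (95% critical value 0.71 for 5 samples). Over the 52 tested members this gave 104 groups, of which chance is expected to flag about 1 in 20, and 11 libraries stood apart.

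The widest gap was that of Adam33, a catalytic ADAM known from smooth muscle and airway cells, which was at 8.31 CPM in TfamAKO 5 and at 0.493 to 1.45 CPM in the other TfamAKO libraries. Its log2 fold change of 0.85 ± 0.64 did not pass (edgeR adjusted p = 0.314) and was -0.36 without that library (0.463). The summed markers of hippocampal neurons were lowest in the same library (441 CPM), those of pericytes and smooth muscle were at 186 CPM there and 214 to 261 CPM in the other TfamAKO libraries, and their part was not tested. In WT, Adam33 was at 2.58 CPM in WT 1 against 1.06 to 1.38 CPM in the others.

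TfamAKO 1 stood apart for 3 members, each time toward the WT level. Mmp14 was at 23.4 CPM there (others 44.7 to 49.1 CPM), Mmp17 at 261 CPM (164 to 188 CPM) and Adam19 at 13.8 CPM (8.45 to 9.83 CPM).

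WT 1 was also high for Adamts16 (5.29 CPM, others 2.11 to 2.98 CPM) and low for Mmp28 (2.52 CPM, others 3.90 to 4.45 CPM). WT 2 was high for Adamts5 (2.22 CPM, others 1.41 to 1.61 CPM). WT 3 was low for Adamts8 (4.99 CPM, others 5.79 to 5.99 CPM) and high for Adamtsl5 (5.51 CPM, others 3.78 to 4.26 CPM). WT 5 was high for Adamtsl3 (2.69 CPM, others 0.988 to 1.34 CPM).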

How the results depend on the processing

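Of the 28 members called, 14 kept their call under every one of the 23 alternatives in which they were tested, and no called member changed direction. The count of members called higher ran from 14 to 20 (18 in the fit reported, 17 to 20 when 1 library was left out). Members called lower numbered 10, and 8 to 12 when 1 library was left out, but 4 without WT 3, 4 and 5, where fewer samples were fitted. Those 4 were Timp4, Adam1a, Adamts6 and Adamts20. Without TfamAKO 4 and 5 the calls of Mmp2, Adam1a, Adamts5, Adamts6 and Adamts9 were lost. Over all genes, without WT 3, 4 and 5 there were 2002 called higher and 750 lower, and with the choroid plexus score as covariate 1619 lower. Partner genes called lower numbered 12 in the fit reported, 7 with the authors' normalized values at each pseudocount, 7 without TfamAKO 4 and 5, 4 without WT 3, 4 and 5, and 5 with the choroid plexus score. A2m (log2 fold change -1.78) reversed to 0.061 without WT 3, 4 and 5 and to 0.148 with the choroid plexus score. The cause was not tested for that score or for the normalized values. The groups share replicate numbers, but same-numbered libraries did not deviate together (r from -0.142 to 0.0691). No WT library correlated best with the TfamAKO library of its own number. With the replicate block 19 members were called higher and 11 lower, 28 of them shared with the fit reported, 28 and 9 partner genes, and 3134 and 2545 of all genes. The members it added were Adam22 (lower, adjusted p = 0.0368) and Adamts4 (higher, 0.0286). Members under about 1 CPM, Timp1 among them, rest on few counts.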

Other observations

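Among the 18 members called higher, TfamAKO 1 had the lowest level of the 5 TfamAKO libraries for 14 and the highest for 0. Among the 10 called lower it had the highest level for 8. No other TfamAKO library was the lowest for more than 3 of the 18 or the highest for more than 2 of the 10. Within TfamAKO, that library had the highest summed astrocyte markers (4394 CPM, of which Gfap made up 2749 CPM). Its endothelial markers (210 CPM) were lower than in TfamAKO 2 to 4 (273 to 334 CPM) but higher than in TfamAKO 5 (197 CPM). The part of these markers in the order was not tested. The sum per length over ADAM genes was 418 to 490 in WT and 523 to 582 in TfamAKO, and that over ADAMTS genes 73.1 to 87.6 and 83.2 to 120. The ADAM sums did not overlap between the groups, and the ADAMTS sums did.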
